A study of Mus musculus with 40 samples.

Results

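The haemoglobin genes described here are the adult beta-chain genes Hbb-bs and Hbb-bt, the adult alpha-chain genes Hba-a1 and Hba-a2, and Alas2, an enzyme gene of haem synthesis. They were chosen by name, as 5 of the 43629 genes counted, with earlier results of these data known. Haemoglobin carries oxygen in red cells and is assembled from alpha and beta chains that each hold a haem group. ALAS2 is the erythroid form of the first and rate-limiting enzyme of haem synthesis. In brain, globin transcripts can come from red cells held in vessels and have also been described in neurons and glia, so that their level in a dissected tissue has more than 1 known source.

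RNA was taken from the amygdala of the left hemisphere, dissected from fresh brain, of male Swiss Webster mice aged 10 weeks. The methods name no perfusion. The question was how the microbial state of the host bears on expression in this region, at rest and after a social stimulus. CON mice were raised conventionally, GF mice were germ-free and kept in isolators, and exGF mice were born germ-free, left the isolators after weaning and lived on bedding used by CON mice. All 3 states shared 1 diet, but CON mice descended from breeding pairs other than those of GF and exGF mice, in an outbred stock. Each state was sampled naïve (CON, GF and exGF, 4 libraries each) or 1 hr after a 3-chamber social interaction test (CON-SI with 8, GF-SI with 12 and exGF-SI with 8 libraries). A naïve library pooled 2 animals by the methods and 2 to 3 by the design text, and an SI library held 1 animal, so that a contrast of SI with naïve mice also sets animals against pools. Handling and novelty in the arena were not told apart from social contact. Libraries are named by group with P (pool) or S (animal) and a number.

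Library totals ran from 7291810 to 19961958 counts. In 5 libraries, namely exGF-S7, the naïve exGF-P1 and exGF-P2 and, in CON, P1 and P3, the ribosomal RNA locus Gm42418 took 6.23% to 32.3% of all counts, against at most 1.75% elsewhere, and these libraries are drawn as open symbols in the plots. All 7 neuronal markers and all 6 markers of amygdala nuclei had counts in every library. Snap25, of the synaptic vesicle machinery, had a mean of 2254 CPM (the usual depth-scaled count, here with TMM factors). Meis2, of intercalated and central amygdala cells, had a mean of 113 CPM. The choroid plexus gene Ttr also had counts in every library, so presence alone does not settle which tissue was dissected. The 4 globin genes together held 56949 counts, 331 to 2748 per library, which is 0.00316% to 0.0168% of all counts.

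Both chains are encoded by duplicated genes, and the sequences below are shown because they bear on which reads can be told apart. The coding sequences of Hbb-bs and Hbb-bt, of 444 bases each, differed at 1 base (C417T, counted from the A of the start codon, the base of Hbb-bs first). Those of Hba-a1 and Hba-a2, of 429 bases each, also differed at 1 base (C381T, the base of Hba-a1 first). Each line gives a stretch of exon 3 on the coding strand, 5′ to 3′, with the base that differs in capitals (GRCm38, transcripts of GENCODE vM21).
Hbb-bs, chr7:103826665-103826722, minus strand: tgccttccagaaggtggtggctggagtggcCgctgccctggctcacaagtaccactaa
Hbb-bt, chr7:103812656-103812713, minus strand: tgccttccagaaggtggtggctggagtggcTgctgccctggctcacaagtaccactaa
Hba-a1, chr11:32284313-32284373, plus strand: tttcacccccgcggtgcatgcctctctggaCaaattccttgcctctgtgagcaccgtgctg
Hba-a2, chr11:32297130-32297190, plus strand: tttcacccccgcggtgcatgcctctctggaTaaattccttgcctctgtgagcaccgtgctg

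At the read length of 100 bases, 331 of the 529 windows of the Hbb-bs transcript also occurred in that of Hbb-bt, and 331 of the 604 windows of Hbb-bt occurred in Hbb-bs. For the alpha genes the shared windows were 339 of 600 in Hba-a1 and 339 of 455 in Hba-a2. Of the windows that lie wholly in coding sequence, 317 of 345 were shared by the beta genes and 281 of 330 by the alpha genes. HTSeq by default leaves out read pairs that align to several places, and the methods name no other setting, so the counts of these 4 genes rest mainly on reads that reach their untranslated ends or the differing base. The split of reads within each pair of duplicates is therefore uncertain. The sequences are also those of the reference genome, and whether these outbred mice carry the same ones was not tested.

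The levels differed widely between members. Per length of exons, in RPKM (CPM per 1000 bases) over the 40 libraries, the mean was 86.7 ± 24.6 (SD) for Hbb-bs, 37.6 ± 9.42 for Hba-a1, 3.99 ± 1.15 for Hbb-bt, 1.18 ± 0.340 for Alas2 and 0.0101 for Hba-a2. This order held in 40 of 40 libraries for each pair of neighbours. Hbb-bs ranked at 214 and Hba-a1 at 782 among 21474 protein-coding genes by mean RPKM, whereas Hbb-bt ranked at 7155 and Alas2 at 10847. Exon length includes the shared windows, so that the RPKM of the globin genes may be too low.

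Hba-a2 (ENSMUSG00000069917, chr11:32296489-32297298, plus strand) was listed at 0 in 36 libraries and at 1 count in 4, namely CON-S5, GF-P1, exGF-S8 and exGF-S10. These 4 counts were 0.0230% of the 17373 alpha-chain counts (95% Wilson interval 0.00895% to 0.0592%, counting error only). A count of 0 allows up to 3 counts, or 0.150 to 0.411 CPM of library total over these 36 libraries. Hba-a2 was too low to pass the filter on low counts, so that 4 of the 5 members were tested and no difference in Hba-a2 was detectable.

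**Figure D1:**
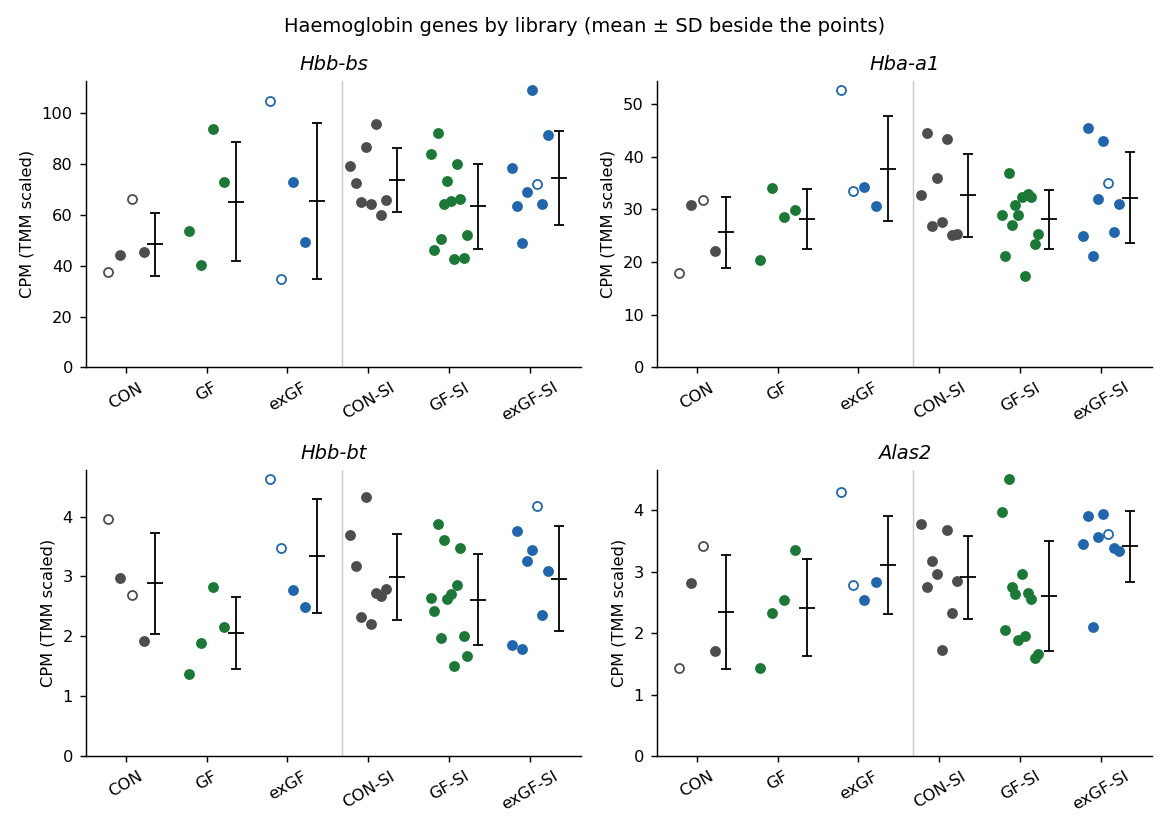
CPM of Hbb-bs, Hba-a1, Hbb-bt and Alas2 (y axes) in each library of the 6 groups (x axes, naïve left of the grey line, SI right of it), with the group mean and SD beside the points and open symbols for the 5 libraries rich in ribosomal RNA. In CON the 4 values of Hbb-bs lie between 37.6 and 66.2 and in CON-SI the 8 values lie between 59.8 and 95.7, and in every panel the groups overlap.

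Hbb-bs (ENSMUSG00000052305, chr7:103826534-103828096, minus strand), the most abundant member, was the only one that passed the threshold (adjusted p of at most 0.1) in any of the 9 comparisons of 2 groups. In naïve CON mice its level was 37.6 CPM in CON-P1, 44.3 in CON-P2, 66.2 in CON-P3 and 45.4 in CON-P4. In CON-SI it ran from 59.8 CPM through a median of 69.0 to 95.7. All 8 CON-SI libraries lay above 3 of the 4 CON libraries, 4 of them lay above CON-P3 as well, and the groups overlapped through CON-P3, which is rich in ribosomal RNA.

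The level of Hbb-bs in CON-SI was 1.51 times that in CON (log2 fold change 0.60 ± 0.154 SE, 95% confidence interval 0.27 to 0.93, p = 0.00151, adjusted p = 0.0681, edgeR quasi-likelihood test on 4 and 8 libraries). In this comparison 1 of the 4 members tested was called, as a rise, where 3.72% of the 15220 genes tested were called in either direction and 2.35% as a rise, and 3.55% of genes had groups that did not overlap. The call was lost without the 2 CON libraries rich in ribosomal RNA, which left 2 libraries in CON. There the log2 fold change was 0.72, with an unadjusted edgeR p of 0.000866 and an adjusted p of 0.155. The call was lost as well in a fit over all 6 groups (0.60, adjusted p = 0.164). It was also lost on leaving out CON-P1, CON-P2, CON-P4, CON-S10 or CON-S11 in turn (log2 fold changes 0.50 to 0.60, adjusted p 0.106 to 0.202). DESeq2 gave 0.60 with an adjusted p of 0.00842, so that the adjusted p ran from 0.00842 to 0.202 over the settings tried.

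The other members did not pass in CON-SI against CON. Hba-a1 (ENSMUSG00000069919, chr11:32283511-32284465, plus strand) lay at 18.0, 30.8, 31.8 and 22.1 CPM in CON-P1 to CON-P4. In CON-SI it lay between 25.1 and 44.5 with a median of 30.2, and 4 of 8 libraries exceeded the highest CON library. The log2 fold change of Hba-a1 was 0.33 (95% confidence interval -0.07 to 0.74, adjusted p = 0.404), that of Alas2 0.27 (-0.26 to 0.81, adjusted p = 0.634) and that of Hbb-bt 0.09 (-0.39 to 0.57, adjusted p = 0.890). Over the 4 members the median was 0.30, beside -0.01 over all genes tested.

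Markers of blood, vessels and other cells were counted in the same comparison. Of the 16 genes of the red cell and erythroid list, 15 had a row and 1, the erythropoietin receptor gene Epor, was high enough to test, and it was not called (log2 fold change -0.31). The summed level of this list was 1.98 to 3.51 CPM in CON and 1.37 to 3.17 CPM in CON-SI, and 2 of its defining members were near 0, with Gata1 at 0 in 39 and Rhag in 36 of 40 libraries. Of the white blood cell and platelet list, 0 of 2 tested genes were called, and of 10 endothelial genes 2 fell, the tight junction gene Cldn5 (-0.45, adjusted p = 0.0464) and the VEGF receptor gene Kdr (-0.79, adjusted p = 0.0223). The pericyte gene Pdgfrb also fell (-0.64, adjusted p = 0.0440), 1 of 8 in its list, as did Folr1 of choroid plexus (-2.03, adjusted p = 0.0665), 1 of 7 tested. The choroid plexus list summed to 47.0 to 314 CPM in CON and 37.1 to 80.2 CPM in CON-SI. The microglial complement gene C1qa rose (0.50, adjusted p = 0.0217), 1 of 8 in its list. Of all 15220 genes tested here, 1.37% were called as a fall and 2.35% as a rise. Pdgfrb also fell in GF-SI against GF (-0.35, adjusted p = 0.0682) and in exGF-SI against exGF (-0.53, adjusted p = 0.0144). Cldn5 fell in the latter (-0.64, adjusted p = 0.0249) and was not called in the former. Kdr, Folr1 and C1qa were called in neither. More cells that hold globin RNA and more of it per cell cannot be told apart in such bulk tissue, and the part of these cell types in the level of Hbb-bs was not tested.

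In GF mice Hbb-bs did not differ beyond the spread. The naïve libraries GF-P1 to GF-P4 gave 53.7, 40.2, 93.9 and 73.0 CPM. In GF-SI the 12 libraries ran from 42.7 through a median of 65.0 to 92.4 CPM, all within the range of the 4 naïve libraries. The log2 fold change was -0.04 (95% confidence interval -0.49 to 0.40, adjusted p = 0.933). Here 0 of 4 members were called, where 13.7% of 15443 genes were, and their log2 fold changes ran from -0.04 for Hbb-bs to 0.36 for Hbb-bt.

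In exGF mice Hbb-bs was 105 CPM in exGF-P1, 34.6 in exGF-P2, 73.0 in exGF-P3 and 49.2 in exGF-P4, the widest spread of the 6 groups (coefficient of variation 47.0%). Its highest and lowest naïve values fell in the 2 exGF libraries rich in ribosomal RNA. The 8 values of exGF-SI lay between 48.9 and 109 CPM with a median of 70.6, and only exGF-S6 exceeded exGF-P1. The log2 fold change was 0.19 (95% confidence interval -0.32 to 0.70, adjusted p = 0.688), and 0 of 4 members were called, where 7.61% of 15264 genes were.

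A response in one state and none in another is not a difference between them, so the difference itself was tested, in 1 fit over the 6 groups. For Hbb-bs the response to social interaction in GF minus that in CON mice was -0.64 on the log2 scale (95% confidence interval -1.29 to 0.01, p = 0.0529, adjusted p = 0.323). This difference did not pass, and it was -0.41 without GF-P3. The difference was -0.41 for exGF against CON (adjusted p = 0.905) and 0.23 for exGF against GF (adjusted p = 0.832). No member was called in these 3 contrasts, where edgeR called 0.0931%, 0.00% and 0.00% of 16111 genes. At an unadjusted p under 0.05 edgeR found 939 genes for exGF against CON and 1839 for exGF against GF, and DESeq2 called 1 gene for the former and 16 higher and 27 lower genes for the latter.

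Over the 3 states as 1 set, the log2 fold change of Hbb-bs after social interaction was 0.25 (95% confidence interval -0.02 to 0.52, p = 0.0679, adjusted p = 0.189), which did not pass. The other 3 members had log2 fold changes of 0.04 (Hba-a1), 0.10 (Hbb-bt) and 0.17 (Alas2), and 0 of 4 were called, where 26.7% of 16111 genes were. The value of Hbb-bs would pass without GF-P3 (0.33, adjusted p = 0.0895) or without exGF-P1 (0.36, adjusted p = 0.0493), the naïve libraries in which it was highest.

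**Figure D2:**
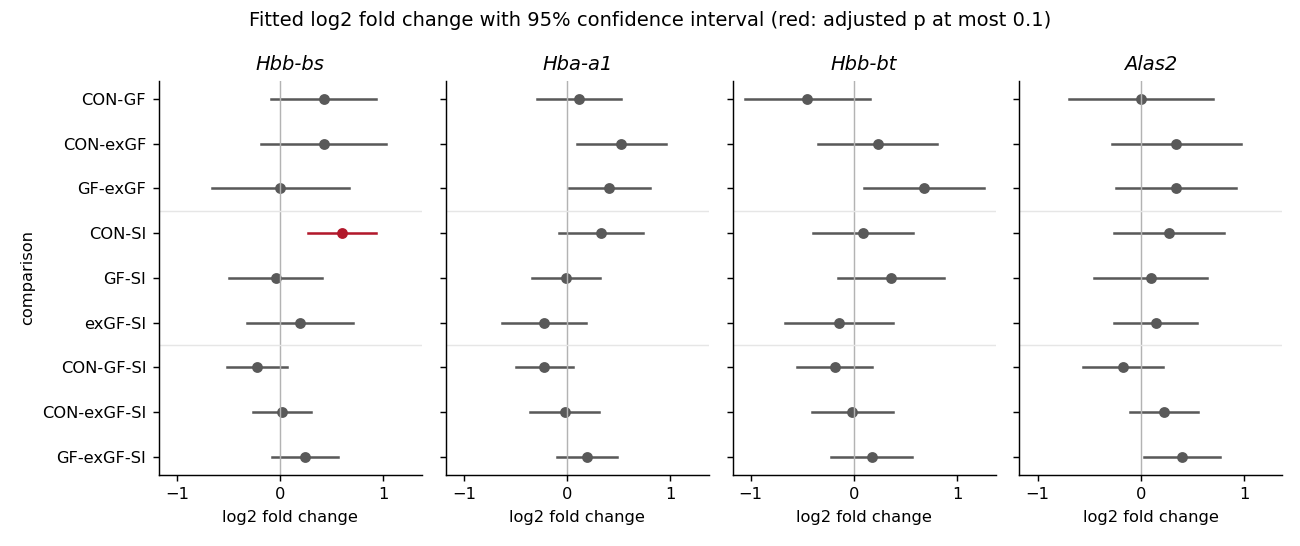
Fitted log2 fold changes (x axes) of the 4 tested members in the 9 comparisons (y axis, each named by its 2 groups, the 3 comparisons in the middle being SI over naïve of 1 state), points with 95% confidence intervals and red where the adjusted p is at most 0.1. The interval of Hbb-bs in CON-SI, 0.27 to 0.93, is the only one drawn in red.

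The naïve groups were compared to ask whether the microbial state alone went with haemoglobin transcripts. Hba-a1 was 20.4, 34.0, 28.6 and 29.9 CPM in GF-P1 to GF-P4 and 52.6, 33.4, 34.2 and 30.7 CPM in exGF-P1 to exGF-P4. In exGF 3 of 4 libraries lay above the highest CON library (31.8 CPM), and the lowest exGF library lay below it, so that the groups overlapped. Against CON its log2 fold change in exGF was 0.53 (95% confidence interval 0.10 to 0.95, p = 0.0203, adjusted p = 0.813), and against GF it was 0.41 (0.02 to 0.80, p = 0.0417, adjusted p = 0.517), neither of which passed after adjustment. Without exGF-P1 these values were 0.33 and 0.21, and without the libraries rich in ribosomal RNA they were 0.29 and 0.21.

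Hbb-bt (ENSMUSG00000073940, chr7:103812524-103813996, minus strand), the minor beta gene here, lay at 4.62, 3.47, 2.77 and 2.49 CPM in exGF-P1 to exGF-P4 and at 1.37, 1.89, 2.82 and 2.16 CPM in GF-P1 to GF-P4. The 2 highest exGF values, both above all GF libraries, came from the libraries rich in ribosomal RNA. The log2 fold change of exGF over GF was 0.68 (95% confidence interval 0.10 to 1.26, p = 0.0249, adjusted p = 0.493). It was 0.37 without the libraries rich in ribosomal RNA, and it rests on 21 to 44 counts per library.

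After adjustment 0 of 4 members were called in any of the 3 naïve comparisons, where edgeR called 0.142% of 14811 genes for GF against CON, 0.104% of 14463 for exGF against CON and 0.00% of 14669 for exGF against GF. Unadjusted p-values under 0.05 were found for 1 member in exGF against CON and for 2 in exGF against GF, beside 5.43% and 9.42% of all genes. For exGF against GF that share is 1382 genes, and DESeq2 called 47 genes as higher and 25 as lower. Hbb-bs in GF against CON had a log2 fold change of 0.42 (95% confidence interval -0.09 to 0.93, adjusted p = 0.539), which was 0.20 without GF-P3.

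Among mice taken after social interaction, the members were compared between states with 8, 12 and 8 libraries. In GF-SI against CON-SI all 4 log2 fold changes lay between -0.22 and -0.17, with 95% confidence intervals that reached from -0.56 to 0.22 and held 0. In exGF-SI against CON-SI they lay between -0.02 and 0.23. No member was called, where 1.10% of 15078 and 1.31% of 14937 genes were. The 3 globin genes had intervals in exGF-SI against CON-SI that ended at 0.30 for Hbb-bs, 0.31 for Hba-a1 and 0.38 for Hbb-bt.

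Alas2 (ENSMUSG00000025270, chrX:150547375-150570638, plus strand) had its lowest p in exGF-SI against GF-SI. In GF-SI it ran from 1.60 CPM through a median of 2.59 to 4.51, and in exGF-SI from 2.10 through 3.51 to 3.95. In exGF-SI 7 of 8 libraries lay at 3.34 CPM or above, but the range of GF-SI covered them all. The log2 fold change was 0.40 (95% confidence interval 0.03 to 0.76, p = 0.0344, adjusted p = 0.342) and did not pass. It was the 1 member with an unadjusted p under 0.05, as were 12.9% of all genes, and 0.0995% of 15068 genes were called. Alas2 rests on 8 to 93 counts per library, so that counting alone gives a coefficient of variation of 14.3% to 23.5% in a group, where the observed one was 16.9% to 39.8%.

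The spread of the 2 abundant members was well above counting. In Hbb-bs the coefficient of variation within groups was 17.0% to 47.0%, where counting gives 3.01% to 4.85%. In Hba-a1 it was 19.8% to 26.7% against 4.59% to 6.80%, and in Hbb-bt 24.0% to 29.6% against 15.0% to 19.2%. Counting error was thus a small part of the spread in the 2 abundant genes.

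The members deviated together from library to library. With group means removed, log2 CPM of Hbb-bs and Hba-a1 had a Pearson r of 0.61 over 40 libraries (p = 6e-05, adjusted p = 9e-05) and a Spearman rho of 0.62 (p = 8e-05, adjusted p = 0.000135) by permutation within groups. Without the 2 libraries farthest from the median of Hbb-bs (exGF-P2 and CON-P1) r was 0.62, and within the SI groups it was 0.79 (CON-SI), 0.85 (GF-SI) and 0.53 (exGF-SI). Alas2, which lies on the X chromosome apart from the globin clusters on chromosomes 7 and 11, had r = 0.69 with Hba-a1 (rho 0.70; permutation p = 1e-05 for both, the smallest that 100000 permutations can give, adjusted p = 6e-05) and 0.67 without GF-S5 and exGF-P1. The SI groups alone gave 0.44 (CON-SI), 0.66 (GF-SI) and 0.79 (exGF-SI).

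All 6 pairs among the 4 members had adjusted permutation p-values of at most 0.00235 and r from 0.50 (Hbb-bs with Hbb-bt) to 0.69. Without the 5 libraries rich in ribosomal RNA r ran from 0.58 to 0.76. The points of each pair share a library, its depth and its scaling. In 12 libraries all 4 members lay above their group mean and in 10 all 4 lay below it.

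**Figure D3:**
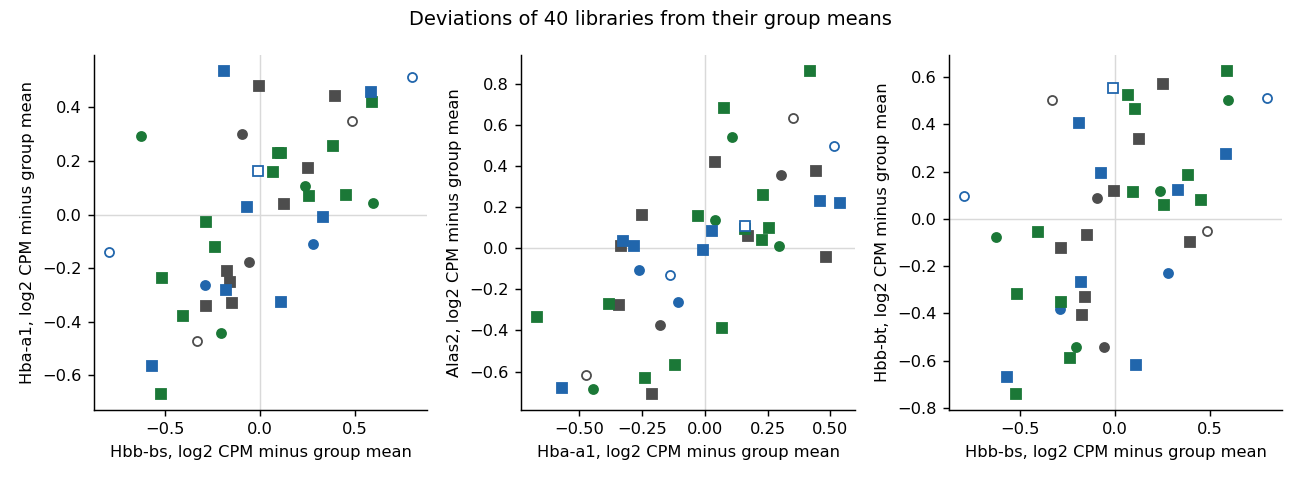
Each point is 1 of 40 libraries, placed by its log2 CPM minus the group mean for Hbb-bs and Hba-a1 (left), Hba-a1 and Alas2 (middle), and Hbb-bs and Hbb-bt (right), with circles for naïve pools, squares for SI animals, grey for CON, green for GF and blue for exGF, and open symbols for libraries rich in ribosomal RNA. The points rise from lower left to upper right, with r of 0.61, 0.69 and 0.50.

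The bases just upstream of the starts of the tested members are shown, from 40 to 11 bases before the RefSeq start (GRCm38.p6), 5′ to 3′ on the strand of the gene. Their part in the shared deviations was not tested. The gene spans given above begin farther upstream, so the stretches shown lie inside them. Capitals mark matches on either strand to the TATA box letters TATAA, the CCAAT box, the CACCC box or the erythroid motif GATA. Some matches are to the reverse strand, where the CCAAT box reads ATTGG and the box CACCC reads GGGTG.
Hbb-bs, chr7:103827939-103827968, minus strand: agggcagagcaTATAAggtgaggtaggatc
Hbb-bt, chr7:103813934-103813963, minus strand: cagcATTGGgtaTATAAagctgagcagggt
Hba-a1, chr11:32283632-32283661, plus strand: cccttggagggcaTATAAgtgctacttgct
Alas2, chrX:150547377-150547406, plus strand: GGGTGGGGTGGGGTGggcggggctgagcag

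In the 100 bases before the start, Hbb-bs, Hbb-bt, Hba-a1 and Hba-a2 each held all of TATAA, the CCAAT box and the CACCC box. These 3 motifs occur in 10.2%, 18.9% and 27.2% of 32851 RefSeq promoters over the same 100 bases. Alas2 held the CACCC box 3 times and the motif GATA 2 times but neither TATAA nor the CCAAT box, Hbb-bs held GATA 1 time, and GATA occurs in 25.0% of promoters. In their 250 upstream bases the alpha genes shared an identical run of 247 bases, while the longest run shared by the beta genes was 14 bases. A match is a description of letters and not of binding.

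Alpha-chain and beta-chain counts were set against each other as a ratio within a library, which no scaling between libraries can move. The windows not shared numbered 198 in Hbb-bs, 273 in Hbb-bt, 261 in Hba-a1 and 116 in Hba-a2. The share of reads left out as aligning to several places can thus differ between the chains. A ratio below 1 therefore does not show less alpha-chain than beta-chain RNA. The ratio of alpha-chain to beta-chain counts ran from 0.295 in GF-P3 to 0.878 in exGF-P2 with a median of 0.434 over 40 libraries, and it was below 1 in all of them. In naïve mice it was 0.503 ± 0.10 in CON, 0.468 ± 0.231 in GF and 0.601 ± 0.195 in exGF (SD, n = 4 each). The means of the SI groups lay closer together, with CON-SI at 0.425 ± 0.0690 (SD, n = 8), GF-SI at 0.435 ± 0.0581 (n = 12) and exGF-SI at 0.425 ± 0.112 (n = 8).

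The spread of this ratio within groups was more than counting gives, with a chi-square per degree of freedom of 4.63 to 49.2 over the 6 groups. GF-P2 alone stood at 0.808 in GF, where the other 3 libraries lay between 0.295 and 0.398. The supplementary quality table of the study names GF-P2 as RNA of 1 animal rather than a pool, and the part of this in the ratio was not tested. In exGF-SI against exGF the log2 ratio differed by -0.49 (exact two-sided permutation test, p = 0.0525, adjusted p = 0.309 over 18 tests, n = 4 and 8).

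Hbb-bt made up 3.97% of 39576 beta-chain counts over all libraries, and 2.31% to 9.52% in single libraries. The 2 highest shares were 9.52% in CON-P1 (95% Wilson interval 6.37% to 14%) and 9.12% in exGF-P2 (6.46% to 12.7%), both rich in ribosomal RNA and low in Hbb-bs. The mean share was 5.94% ± 2.62 in CON, 3.19% ± 0.888 in GF and 5.45% ± 2.49 in exGF (SD, n = 4 each), and 3.91% to 3.99% in the 3 SI groups. None of the 18 tests of these ratios had an exact p under 0.05, and the lowest adjusted p was 0.309. With 4 against 4 libraries the smallest exact p is 0.0286.

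**Figure D4:**
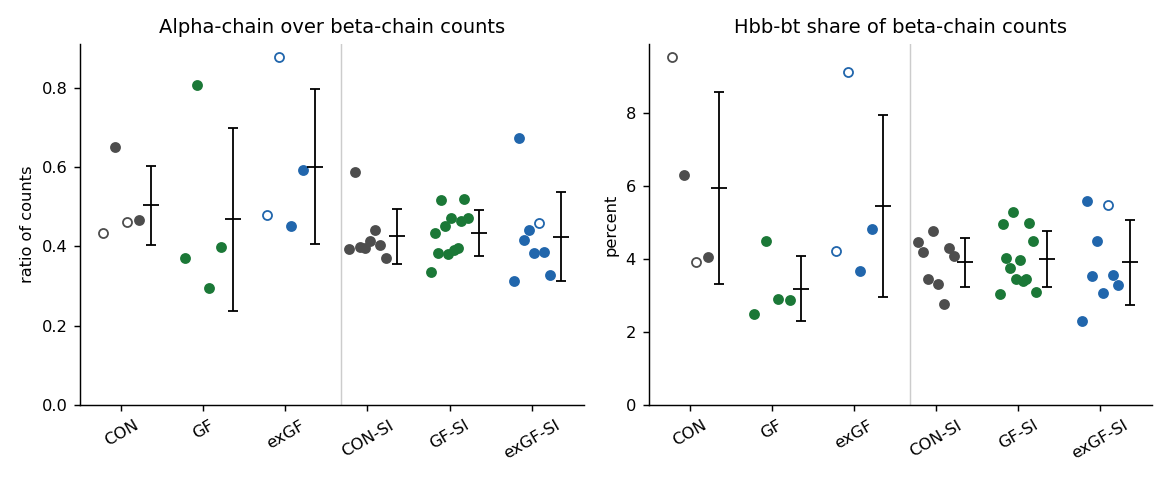
Alpha-chain over beta-chain counts (left, ratio) and the share of Hbb-bt in beta-chain counts (right, percent) in each library of the 6 groups (x axes), with the group mean and SD beside the points and open symbols for libraries rich in ribosomal RNA. Most SI libraries lie close together on the left, between 0.312 and 0.520, apart from CON-S11 at 0.589 and exGF-S3 at 0.673.

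The summed globin level was set against 12 lists and 3 library measures over the 40 libraries with group means removed. For the red cell and erythroid list r was 0.26 and rho 0.27 (permutation p = 0.125, adjusted p = 0.626 and 0.663 over 15 relations), and r was 0.22 without CON-S6 and exGF-S7. Its value was 0.74 within CON-SI, 0.36 within GF-SI and -0.32 within exGF-SI. For endothelium r was 0.18 and for white blood cells and platelets 0.26. The 15 values of r ran from -0.27 (haem breakdown and transport) to 0.26, and none passed adjustment. Choroid plexus, whose transthyretin gene Ttr ran from 8.63 to 1347 CPM, had r = -0.18, and Gm42418 had r = -0.09.

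By likeness to the summed globins among 14112 genes with a mean of at least 1 CPM, the 10 genes with the highest r over 40 libraries were Nudt5, Gm7335, Nostrin, Adgrl4, Sdc4, Tef, Fitm2, Bcdin3d, Stk17b and Cenpv, with r from 0.57 down to 0.52. These genes were picked for their r, so the values are no test, and no permutation level was set for the ranking. At the other end Tmem201 had an r of -0.62, larger in size than any of the 10. Adgrl4 is an adhesion receptor of endothelium (mean 19.6 CPM, r = 0.54) and Nostrin an endothelial regulator of nitric oxide synthase (5.19 CPM, r = 0.55). Within CON-SI r was 0.01 for Adgrl4, and within GF-SI and exGF-SI it was 0.64 and 0.70. Tef, a clock-output transcription factor at 269 CPM, had r of 0.71 within CON-SI, 0.44 within GF-SI and 0.54 within exGF-SI.

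Genes of haem and iron handling were counted in the same comparisons. Of the 8 genes of haem synthesis outside erythroid Alas2, 2 fell in GF-SI against GF, the housekeeping first enzyme Alas1 (log2 fold change -0.38 ± 0.0679 SE, adjusted p = 0.00306) and Ppox (-0.50 ± 0.149, adjusted p = 0.0471), which oxidises protoporphyrinogen. The 2 of 8 that fell stand beside 13.7% of all genes called in GF-SI, 5.86% as a fall, and none of the 8 passed in CON-SI or exGF-SI. Over the 3 states Alas1 (-0.15) and Fech (-0.15), which inserts iron into haem, fell and Cpox (0.15) rose, with 5 of 8 not passing, so that the 3 of 8 called lie near the 26.7% of all genes.

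Of 10 iron genes, the transferrin receptor gene Tfrc (-0.35, adjusted p = 0.0246) and the iron importer gene Slc11a2 (-0.31, adjusted p = 0.00993) fell in GF-SI, and the exporter gene Slc40a1 fell in exGF-SI (-0.63, adjusted p = 0.0932). These counts, 2 of 10 and 1 of 10, stand beside 13.7% and 7.61% of all genes called there, 5.86% and 3.01% as a fall. Over the 3 states these 3 and Aco1 fell and none rose, 4 of 10 beside 26.7% of all genes called, 12.2% as a fall. Of 9 tested genes of haem breakdown and transport, the haem transporter gene Slc48a1 fell in GF-SI (-0.28, adjusted p = 0.0603) and exGF-SI (-0.31, adjusted p = 0.0420), and Cd163, the haemoglobin scavenger receptor of macrophages, rose in GF-SI (0.81, adjusted p = 0.0759). Of 9 tested hypoxia targets, the glucose transporter gene Slc2a1 rose in CON-SI (0.61, adjusted p = 0.0971), and in GF-SI Vegfa rose (0.26, adjusted p = 0.0897) and Ankrd37 fell (-0.47, adjusted p = 0.0335). In each comparison of SI with naïve mice 0 to 2 of the 9 tested genes of either list were called, where the shares of all genes were 3.72% (CON-SI), 13.7% (GF-SI) and 7.61% (exGF-SI).

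Of the 10 other globins only 2 or 3 were high enough to test in a comparison, and none of those was called. Cygb, cytoglobin of fibroblast-like cells and some neurons, averaged 27.2 CPM, and Ngb, the neuronal globin, 3.40 CPM. The embryonic genes Hbb-y and Hbb-bh1 had 2 and 1 counts in all, and Hbb-bh0, Hbb-bh2 and Hba-x had 0 counts in 40 libraries.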

How the data were processed

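Gene counts of 40 libraries were used. The deposited counts were made by the authors with Trimmomatic 0.32, STAR 2.4.0f1 and HTSeq 0.6.0 on GRCm38.p3 with Ensembl gene models, from ribodepleted paired reads and without use of strand, so that sense and antisense reads were not separated. These names follow the methods and the submitters' processing notes. Counts are raw reads per gene, and no column of other samples and no row without a gene was present.

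Groups followed the labels. Each of the 9 comparisons was fitted on its own libraries with edgeR 4.0.16 (R 4.3.3, limma 3.58.1) by the quasi-likelihood test with TMM scaling, a filter on low counts and Benjamini-Hochberg adjustment over all genes tested (threshold 0.1). Differences between responses came from 1 fit over the 6 groups. DESeq2 1.42.0, other scalings, no filter, leaving out libraries and a replicate block were alternatives. Ratios of counts were compared on the log scale by exact permutation tests, with 0.5 added to counts only in the ratio of Hba-a2 to Hba-a1. Correlations were tested by 100000 permutations within groups. The tools were Python 3.11.15, numpy 2.4.6, scipy 1.17.1, pandas 2.3.3 and matplotlib 3.10.9. Relations covered 6 pairs, since Hba-a2 was nearly always at 0, and the 9 tests of a ratio of Hba-a2 to Hba-a1 were left out for the same reason, with adjustment over the other 18. The fits were tested on simulated data. Library totals (7291810 to 19961958 counts) limit the precision of Hbb-bt, Alas2 and Hba-a2 most, and Wilson intervals cover counting error only. The labels number separate samples but do not state separate litters, so p-values measure the spread between these samples.

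All members are named, up to 4 genes of a list by smallest p in a comparison (all where a list has 10 genes or fewer), the 10 genes most like the summed globins, and Gm42418 and Ttr. Members and lists were chosen with earlier results of these data known, and the 4 upstream motifs after the sequences were seen. No 2 libraries held identical values, and the lowest chi-square per degree of freedom within a group was 7.21.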

Additional observations from a re-analysis of the deposited data

Results flagged for a closer look

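In 40 sets of values, each from a group of 4 or 8 libraries, a single library far from the rest was looked for, and 8 sets held 1. Chance gives this in about 1 in 20 independent sets of continuous values. The sets here shared libraries and genes, and in Hba-a2 a single read can set a library apart. The 8 sets are therefore not read as an excess. exGF-P1 stood above the other exGF libraries in Hba-a1 (52.6 CPM, others 30.7 to 34.2) and in Alas2 (4.29 CPM, others 2.54 to 2.83), and it is 1 of the 5 libraries rich in ribosomal RNA. exGF-S4 was low in Alas2 among exGF-SI (2.10 CPM, others 3.34 to 3.95).

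In Hba-a2 a single read set CON-S5 (0.0594 CPM) and GF-P1 (0.0652 CPM) apart from libraries at 0. The ratio of alpha-chain to beta-chain counts was high in CON-P2 (0.652, others 0.433 to 0.466), in CON-S11 (0.589, others 0.370 to 0.441) and in exGF-S3 (0.673, others 0.312 to 0.458). No difference between the responses of 2 states passed its test.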

How the results depend on the processing

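Of 320 log2 fold changes under alternatives that did not leave out 1 library, 309 kept their direction and their side of the threshold, and so did 13 of 14 ratio differences and all 12 correlations recomputed. The number of members called in CON-SI fell to 0 in 1 fit over the 6 groups and without the libraries rich in ribosomal RNA, and ranged from 0 to 1 on leaving out single libraries, with the log2 fold change of Hbb-bs between 0.50 and 0.79. Over the 3 states that number also ranged from 0 to 1. The cause was not tested. Directions turned for small values: Hbb-bs in exGF against GF was -0.0372 with library sizes free of ribosomal RNA, -0.0891 without the libraries rich in it and -0.0531 with the block; Hba-a1 in GF-SI was 0.0102 with no filter and 0.00026 in DESeq2; without the libraries rich in ribosomal RNA Hbb-bt in exGF-SI was 0.0907 and the log2 ratio difference alpha over beta in CON-exGF was -0.0909. Leaving out single libraries turned Alas2 in GF against CON (-0.22 to 0.23), in GF-SI (-0.0956 to 0.31) and in the response differences GF against CON (-0.40 to 0.0431), exGF against CON (-0.35 to 0.0429) and exGF against GF (-0.17 to 0.23). It turned Hba-a1 in exGF-SI against CON-SI (-0.11 to 0.0511), GF-SI (-0.14 to 0.0915) and over 3 states (-0.0104 to 0.10), and Hbb-bs in exGF-SI against CON-SI (-0.0851 to 0.0821), GF-SI (-0.22 to 0.18), exGF against GF (-0.31 to 0.23) and exGF-SI (-0.0159 to 0.51). Hbb-bt turned in CON-SI (-0.0797 to 0.24), exGF-SI against CON-SI (-0.0953 to 0.0817) and exGF-SI (-0.29 to 0.0424). Log2 Hbb-bt over Hbb-bs turned in GF-SI against CON-SI (-0.0436 to 0.0723), exGF against CON (-0.43 to 0.15), exGF-SI against CON-SI (-0.12 to 0.0656) and exGF-SI against GF-SI (-0.15 to 0.0388), and alpha over beta in exGF-SI against CON-SI (-0.13 to 0.0431) and GF-SI (-0.19 to 0.29). DESeq2 called more genes than edgeR: 67 higher and 88 lower against 21 in all (GF against CON), 35 and 25 against 15 (exGF against CON), 620 and 342 against 566 (CON-SI), 263 and 258 against 166 (GF-SI against CON-SI), 351 and 207 against 195 (exGF-SI against CON-SI), 131 and 165 against 15 (exGF-SI against GF-SI) and 278 and 217 against 15 (response of GF against CON). Depth limits Hba-a2, Hbb-bt and Alas2.

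Library numbers are shared by groups, but they do not pair the samples: in no comparison did every pair of same-numbered libraries correlate above 0.1 (2 of 4 pairs in GF against CON, 5 of 8 in exGF-SI against GF-SI). With the replicate number as a block 1 member was called in exGF-SI against GF-SI, Alas2 (0.66, adjusted p = 0.0961), and 0 elsewhere, while Hbb-bt and Hba-a1 in exGF-SI against CON-SI were both 0.22. In exGF-SI against GF-SI 5 of 16 libraries correlated best with their own number.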
